A study of Homo sapiens with 2 samples.

Results

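The class A and class B J-domain proteins of the cytosol, with the mitochondrial DNAJA3 as a contrast, made up 9 of the 332 genes of a chaperome table, a list of chaperones, co-chaperones and folding enzymes with their RNA reads. They were chosen by name, with earlier results of these data known. The names were DNAJA1, DNAJA2, DNAJA3 and DNAJA4 of class A and DNAJB1, DNAJB2, DNAJB4, DNAJB5 and DNAJB6 of class B, and all 9 were found. The cells were HEK293 Flp-In T-Rex, which are human embryonic kidney cells with a genomic site into which a recombinase can insert a gene of choice, and their total RNA was the material of the libraries. The labels put 2 libraries, replicates 1 and 2, in 1 group of cells grown in high-glucose DMEM with serum, and name no treatment or genotype difference between them. The study's design text describes lines with tagged GFP or tagged HSPA1A induced with tetracycline for 16 hours, and whether RNA came from such a line or from the parental cells is not stated. The extraction text calls the cells HEK293T.

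J-domain proteins deliver unfolded clients to HSP70 and, through the histidine-proline-aspartate (HPD) motif of their J domain, make HSP70 hydrolyse ATP and close on the client. Class A proteins carry a J domain, a glycine-phenylalanine stretch, a zinc-finger region of cysteine-glycine repeats and client-binding domains, whereas class B proteins lack the zinc finger. In the cytosol both classes work with HSPA8 and the inducible HSP70 genes in folding, refolding and the release of aggregates. DNAJA3 works with HSPA9 inside mitochondria.

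The codons for HPD are shown first because they define the family. In the principal transcript of every member (the APPRIS principal isoform of GENCODE 29, on GRCh38) a search in the reading frame found 1 run of such codons. Each stretch below is 33 bases of coding sequence, 5′ to 3′, with the HPD codons in capitals.

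DNAJA1 (chr9:33026572-33026604, plus strand): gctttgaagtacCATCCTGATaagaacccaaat
DNAJA2 (chr16:46971908-46971940, minus strand): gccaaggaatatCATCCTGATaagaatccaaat
DNAJA3 (chr16:4437405-4437437, plus strand): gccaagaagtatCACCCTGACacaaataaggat
DNAJA4 (chr15:78264851-78264883, plus strand): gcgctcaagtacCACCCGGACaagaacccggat
DNAJB1 (chr19:14518236-14518268, minus strand): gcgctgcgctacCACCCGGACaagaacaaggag
DNAJB2 (chr2:219280591-219280623, plus strand): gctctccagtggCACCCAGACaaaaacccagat
DNAJB4 (chr1:78005192-78005224, plus strand): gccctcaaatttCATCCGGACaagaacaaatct
DNAJB5 (chr9:34993315-34993347, plus strand): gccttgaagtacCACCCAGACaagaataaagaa
DNAJB6 (chr7:157363174-157363206, plus strand): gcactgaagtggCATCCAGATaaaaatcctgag

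The stretches began and ended within an exon in all 9 genes. Codons 34 to 36 of DNAJA1 held the motif, near the start of the protein, while in DNAJA3 it lay at codons 121 to 123, behind a longer N-terminal part. In the DNAJB5 principal transcript it lay at codons 146 to 148.

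The repeat that sets class A apart was searched as cysteine, any 2 codons, cysteine, any codon, glycine, any codon, glycine. It was found 3 times in DNAJA1, DNAJA2 and DNAJA4, 4 times in DNAJA3 and 0 times in each of the 5 class B genes, so the class given by the names and by this search was the same for all 9. Only exact matches were counted, so a repeat that departs at any of these cysteine or glycine codons would be missed. The second repeat of each class A gene is shown with the cysteine and glycine codons in capitals.

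DNAJA1 (chr9:33030472-33030495, plus strand): TGTcccaatTGCcgaGGTactGGA
DNAJA2 (chr16:46967592-46967615, minus strand): TGTagtgctTGTcgaGGTcgaGGT
DNAJA3 (chr16:4442394-4442417, plus strand): TGCcactacTGTggcGGCtccGGC
DNAJA4 (chr15:78274229-78274252, plus strand): TGCccgctgTGCaagGGGcggGGG

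The last 4 codons began with a cysteine codon in DNAJA1, DNAJA2 and DNAJA4, the position of the farnesylated cysteine in DNAJA1. DNAJB2 had such a codon too, and DNAJA3 and the other class B genes had none.

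DNAJA1, the main class A co-chaperone of the cytosol and a farnesylated protein, had the highest RNA level of the 9 genes with each of 3 gene lengths. Its 1208 reads in replicate 1 and 860 in replicate 2 gave 12.1 and 13.2 RPKM (reads scaled to the library total and divided by gene length in kilobases) by genomic span, the length behind the authors' deposited mean. Per kilobase of exon union, all exons of the gene in GENCODE 29 merged, DNAJA1 stood at 64.8 and 70.9 RPKM. Both libraries were therefore alike in placing it first, and its means were 12.7 ± 0.799 RPKM by span and 67.8 ± 4.28 RPKM by exon union (SD, n = 2).

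DNAJA2, a class A protein that promotes refolding by HSP70, had 576 and 385 reads. That was 4.61 and 4.73 RPKM by span and 16.7 and 17.1 RPKM by exon union. The ratio of DNAJA1 to DNAJA2 was 2.71 ± 0.121 by span and 4.02 ± 0.179 by exon union (SD, n = 2), so DNAJA1 was higher in both libraries on either scale.

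DNAJA4, the remaining cytosolic class A gene, was close to undetected. Replicate 1 held 1 read of it and replicate 2 held 3, at or below the 3 reads that a count of 0 still allows, which is 0.439 RPM (reads scaled to the library total alone) in replicate 1 and 0.675 RPM in replicate 2. Over both libraries its 4 reads gave 0.355 RPM (exact 95% Poisson interval 0.0967 to 0.908). By exon union it stood at 0.0222 RPKM in replicate 1 and 0.102 RPKM in replicate 2. On the opposite strand 2 genes, AC090607.3 and AC090607.4, shared 6.68% of its exon union, and for DNAJB1 this share was 6.21%, with TECR and MIR639. Whether the authors counted by strand was not stated, so reads in these stretches are uncertain. DNAJB4 shared 2.06% of its exon union with GIPC2 on the same strand, which counting by strand would not resolve. These shares cover exons only. The deposited span of DNAJB1 (14514769 to 14560391) lay mostly within TECR (14517085 to 14565980). That of DNAJB4 (77979175 to 78017964) lay mostly within GIPC2 (77979542 to 78138449). Whether reads in introns were counted was not stated, so more reads of these 2 members could be uncertain.

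DNAJA3, the mitochondrial class A protein, had 467 and 261 reads. By span it stood at 2.21 RPKM in replicate 1 and 1.90 RPKM in replicate 2, and by exon union at 9.67 and 8.30 RPKM. Unlike DNAJA1 and DNAJA2, it was lower in replicate 2. All 3 genes listed for the mitochondrial system, HSPA9, GRPEL1 and GRPEL2, reached 1 RPKM by span and by exon union. HSPA9, the mitochondrial HSP70 and partner of DNAJA3, was at 60.4 ± 1.76 RPKM by exon union. DNAJA3 amounted to 14.9 ± 1.17% of the HSPA9 level by exon union, 9.01 ± 0.710% by span and 21.8 ± 1.72% by principal transcript (SD, n = 2).

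Among the class B genes, DNAJB1 led by span and by exon union. DNAJB1, a heat-inducible co-chaperone that works with HSP70 in releasing proteins from aggregates, had 411 and 291 reads, 1.32 and 1.43 RPKM by span and 16.4 and 17.8 RPKM by exon union. DNAJB6, which keeps glutamine-rich proteins from aggregating, had slightly more reads, 452 and 329. Spread over its longer gene these were 0.807 and 0.902 RPKM by span and 4.42 and 4.94 RPKM by exon union.

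The other class B genes were low. DNAJB4, a close relative of DNAJB1, had 76 and 57 reads, or 2.94 and 3.39 RPKM by exon union. DNAJB2, a protein best known from neurons that carries ubiquitin-interacting motifs, had 38 and 27 reads, or 0.945 and 1.03 RPKM by exon union. DNAJB5, another relative of DNAJB1, had 24 and 14 reads, or 0.597 and 0.535 RPKM by exon union. By span these 3 genes ranged from 0.287 to 0.804 RPKM over the libraries. All 3 were below DNAJB1 in both libraries on either scale. By exon union DNAJB1 exceeded DNAJB4 5.42 ± 0.220 times, DNAJB2 17.3 ± 0.0431 times and DNAJB5 30.4 ± 4.15 times (SD, n = 2). With so few reads of DNAJB2 and DNAJB5, counting error makes their ratios uncertain. The small SD for DNAJB2, from 2 libraries, does not show that its ratio is precise.

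**Figure D1:**
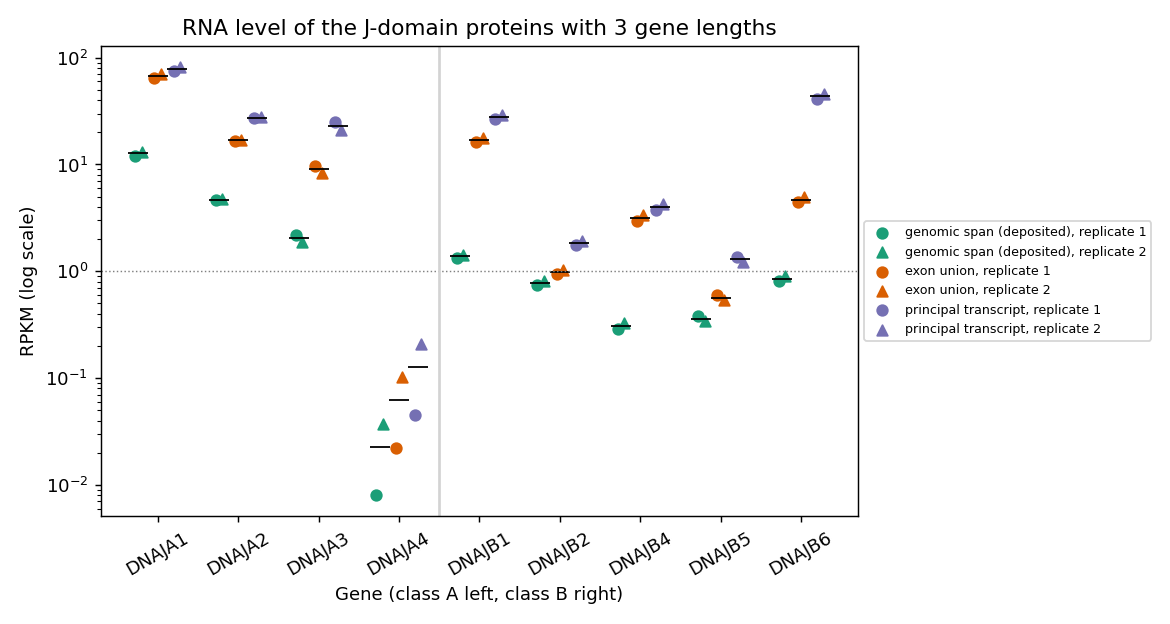
RPKM of each gene (log axis) in replicate 1 (circles) and replicate 2 (triangles), with the mean as a bar, for 3 gene lengths; the dotted line marks 1 RPKM. DNAJA1 is highest with each length, from 12.7 RPKM by genomic span to 77.8 RPKM by principal transcript, DNAJA4 is lowest, and DNAJB6 moves most, from 0.854 to 43.6 RPKM.

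The order of the levels was compared between neighbours on the log2 scale with 0.5 reads added to each count. A pair was called different if the 2 libraries gave the same sign and their mean difference exceeded 2 standard errors. The standard error, 0.16, came from the replicate SD pooled over 263 table genes with at least 10 reads in each library, a limit that DNAJA4 does not reach. It was the same for every pair, though counting error is larger at low counts. Calls that involve DNAJA4, DNAJB2 or DNAJB5 are therefore less certain than the rule implies. No p-value is given for the order, because 0.5 is the smallest that an exact test allows with 2 replicates.

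By span the order was DNAJA1, DNAJA2, DNAJA3, DNAJB1, DNAJB6, DNAJB2, DNAJB5, DNAJB4 and DNAJA4, and 6 of 8 neighbouring pairs were called. DNAJB6 and DNAJB2 did not differ beyond the spread (log2 difference 0.13, SE 0.16), nor did DNAJB5 and DNAJB4 (0.25, SE 0.16). DNAJA3 over DNAJB1 (0.57) was no longer called without replicate 1, at 0.40, and neither it nor DNAJB1 over DNAJB6 (0.69) was called with the SD pooled over all table genes. By exon union the order was DNAJA1, DNAJB1, DNAJA2, DNAJA3, DNAJB6, DNAJB4, DNAJB2, DNAJB5 and DNAJA4, with 7 of 8 pairs called. There DNAJB1 and DNAJA2 were level, with a log2 difference of -0.02 in replicate 1 and 0.06 in replicate 2.

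The gene length used decided much of this order, since the deposited spans of these genes run from 7.56 to 82.1 kb. The deposited span of DNAJB1 (ENSG00000132002, chromosome 19, 14514769 to 14560391, minus strand, GRCh38) is 45.6 kb and equals the RefSeq gene, whereas GENCODE 29 gives a span of 15.0 kb. On this strand the difference lies at the 5′ side, where the GENCODE gene starts 30621 bases further downstream. The principal transcript of DNAJB1 covers 3651 bases of the genome and is 2264 bases long once spliced. The same reads gave DNAJB1 1.38 ± 0.0816 RPKM by the deposited span, 4.19 ± 0.248 by the GENCODE span, 17.1 ± 1.01 by exon union and 27.7 ± 1.64 by principal transcript (SD, n = 2). Its rank in the table of 332 genes was 134 by span, 71 by exon union and 69 by principal transcript.

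DNAJB6 (ENSG00000105993, chromosome 7, 157335381 to 157417439, plus strand) moved further still. Its 82.1 kb span, its exon union of 14981 bases and its principal transcript of 1609 bases gave 0.854 ± 0.0673, 4.68 ± 0.369 and 43.6 ± 3.43 RPKM (SD, n = 2). By principal transcript it was second to DNAJA1 at 77.8 ± 4.91 RPKM, and its rank in the table was 53, against 162 by span and 174 by exon union. The gene makes a long nuclear and a short isoform, and the counts per gene do not separate them. Of the 50-base windows of its principal transcript, 30.9% also occurred in 5 annotated pseudogenes, so its reads are uncertain where they could match those copies, and how the authors treated such reads was not stated. This share was 9.42% for DNAJA4, with the same 2 overlapping genes on the opposite strand, 2.57% for DNAJB1, with 1 pseudogene, 1.50% for DNAJA1, with 1 pseudogene, and 0% for DNAJA2, DNAJA3, DNAJB2, DNAJB4 and DNAJB5.

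**Figure D2:**
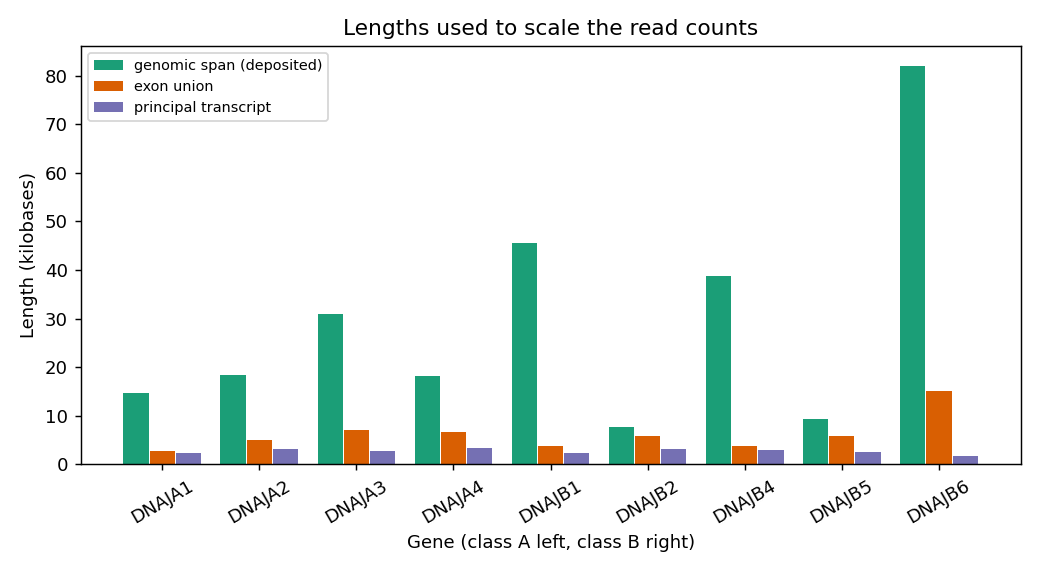
Length in kilobases (bars start at 0) of the deposited genomic span, the exon union and the principal transcript of each gene. The spans differ widely, up to 82.1 kb for DNAJB6 and 45.6 kb for DNAJB1, while the principal transcripts lie between 1609 and 3245 bases.

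Principal transcripts give a length closer to 1 spliced RNA but ignore other isoforms. By this length DNAJB1 stood at 27.7 ± 1.64, DNAJA2 at 27.4 ± 0.509 and DNAJA3 at 23.0 ± 2.48 RPKM (SD, n = 2), and neither DNAJB1 and DNAJA2 nor DNAJA2 and DNAJA3 differed beyond the spread. Of all 36 pairs of members, 27 were called in the same direction with all 3 lengths. Another 5 pairs were called in opposite directions with different lengths. They were DNAJA2 with DNAJB6, DNAJA3 with DNAJB1, DNAJA3 with DNAJB6, DNAJB1 with DNAJB6, and DNAJB2 with DNAJB4. The 27 include pairs with DNAJA4, DNAJB2 or DNAJB5, for which the pooled standard error may be too small.

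A mean of at least 1 RPKM by span was reached by 4 of the 9 members, DNAJA1, DNAJA2, DNAJA3 and DNAJB1, against 46.4% of the 332 table genes. By exon union 6 of 9 did so, against 74.4% of the table, and by principal transcript 8 of 9, against 77.1%. These shares of the members were near those of the table by span and by exon union. The median member stood at 0.854 RPKM by span and 4.68 RPKM by exon union, and the median table gene at 0.784 and 5.17 RPKM.

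**Figure D3:**
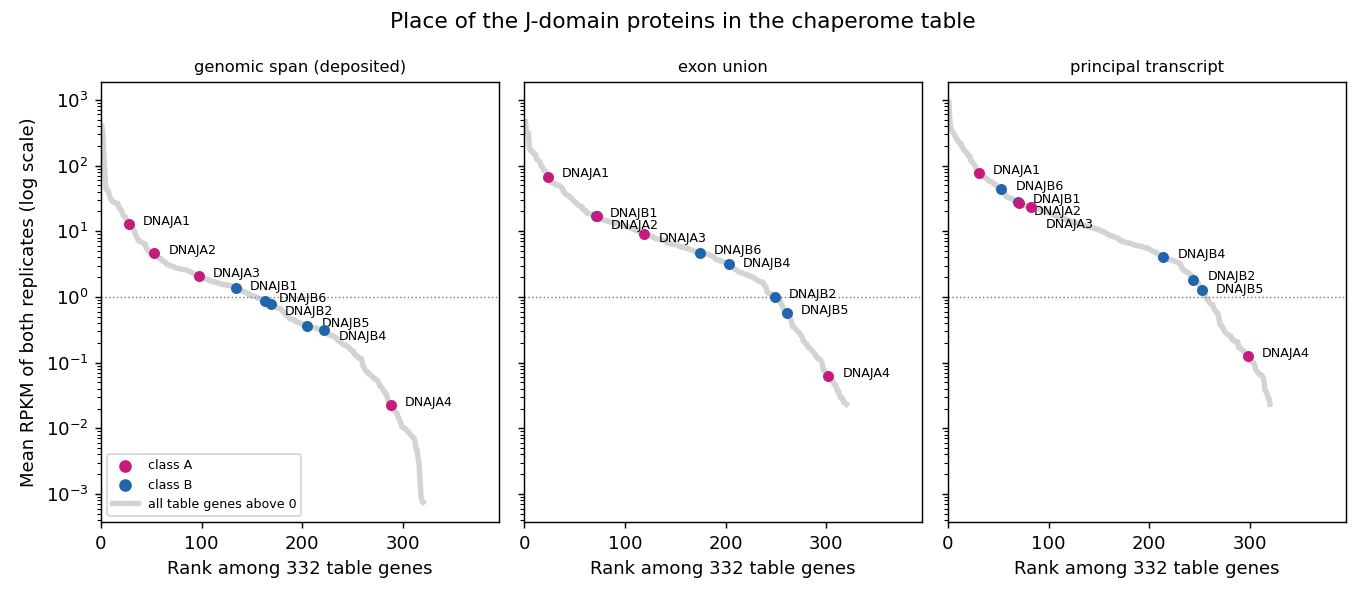
Mean RPKM of both replicates (log axis) against rank for the 332 table genes with each of 3 lengths; class A members are pink and class B members blue, and the grey line holds all genes above 0. DNAJA1 ranks 28 by span and 23 by exon union, the other members spread over the whole range, and DNAJA4 ranks 288 and 302.

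Genes of the table nearest in level to the leading members were named by their log2 distance in mean level over the 2 libraries. Nearest to DNAJA1 by span were PTGES3, an HSP90 co-chaperone (13.1 RPKM), TXN, thioredoxin (11.5 RPKM), and STIP1, which links HSP70 to HSP90 (11.4 RPKM). By exon union they were PDIA4, a disulfide isomerase of the endoplasmic reticulum (62.3 RPKM), HSPA9 (60.4 RPKM) and PRDX4, a peroxiredoxin (78.4 RPKM). Nearest to DNAJB1 were RPAP3, PPIC and CDC16 by span and CDC27, CDC23 and PPIL4 by exon union. With 2 libraries of 1 group this is a likeness of level only.

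The upstream sequences of 3 members are shown, for 3 reasons. DNAJB1 is a known target of the heat shock factor HSF1, and DNAJA4 carries the same letters at a very different RNA level. DNAJB6 holds the longer form of the site before its RefSeq start. HSF1 binds inverted repeats of GAA. Motifs were searched on both strands in windows from 250 bases before to 50 after each listed RefSeq start (build GRCh38.p14). They were GAANNTTC and its 3-unit form GAANNTTCNNGAA, which contains it. Of 35116 such windows, 6.77% held the first and 0.490% the second. All 9 members matched a window by symbol, and some had several. None of the DNAJB1 or DNAJB5 windows covered the start of the RefSeq gene (14560391 and 34989745), so those starts were not searched. Each line gives the bases from 200 to 39 before a RefSeq start, 5′ to 3′, with the matches in capitals; the last 38 bases are left out.

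DNAJA4 (chr15:78264362-78264523, plus strand): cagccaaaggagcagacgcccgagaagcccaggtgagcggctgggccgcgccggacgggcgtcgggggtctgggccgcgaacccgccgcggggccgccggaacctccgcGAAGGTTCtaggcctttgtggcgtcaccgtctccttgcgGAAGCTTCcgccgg
DNAJB1 (chr19:14518436-14518597, minus strand): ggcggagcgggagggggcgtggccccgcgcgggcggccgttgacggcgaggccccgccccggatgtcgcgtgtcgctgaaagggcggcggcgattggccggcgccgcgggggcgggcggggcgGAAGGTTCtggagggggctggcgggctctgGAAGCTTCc
DNAJB6 (chr7:157336804-157336965, plus strand): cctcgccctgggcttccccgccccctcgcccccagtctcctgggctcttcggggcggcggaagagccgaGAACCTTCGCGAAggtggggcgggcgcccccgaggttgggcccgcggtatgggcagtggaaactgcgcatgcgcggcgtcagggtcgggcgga

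The DNAJB1 stretch, which ends shortly before the start of the principal transcript at 14518420, held GAAGGTTC and GAAGCTTC. They began 77 and 47 bases before a listed RefSeq start. The same letters stood in the DNAJA4 stretch, 91 and 52 bases before a RefSeq start that lies inside the gene, since the principal transcript begins at 78264086 and 32 of the 162 bases shown are its coding exon. DNAJB1 had 702 reads over both libraries and DNAJA4 had 4. The DNAJB6 stretch, which ends at the base before its principal transcript, held the 3-unit form, beginning 131 bases before the RefSeq start. DNAJA1 had GAAGATTC 198 bases before its RefSeq start and a 3-unit match beginning within 3 bases after it. The principal transcript of DNAJA1 begins earlier, at 33025211, so the 3-unit match lies after that start too. A further DNAJB1 window, from a start inside the gene, held GAAGCTTC. No match was found in the windows of DNAJA2, DNAJA3, DNAJB2, DNAJB4 and DNAJB5, which says only that these letters are not in those windows. The DNAJB5 window lay inside the gene, downstream of its principal transcript start at 34989641.

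No member differed between the libraries beyond counting error after adjustment. Replicate 1 had a library total of 6828264 reads and replicate 2 one of 4445676, as recovered from the deposited RPKM, and the members took 3253 reads (1.69% of the table's reads, 95% Wilson interval 1.63 to 1.75) and 2227 reads (1.77%, 1.70 to 1.84). These intervals cover counting error only. In an exact binomial test of each gene between the libraries, with Benjamini-Hochberg adjustment over the 332 genes, 0 of the 9 members had an adjusted p under 0.05, against 4.52% of the table. At an unadjusted p under 0.05 there were 2 of the 9 members, against 55 of the 332 table genes. These members were DNAJA1 (log2 of replicate 2 over replicate 1 0.13, p = 0.0477, adjusted p = 0.293, exact binomial test) and DNAJA3 (log2 ratio -0.22, p = 0.0487, adjusted p = 0.294).

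Replicate 2 was higher for 7 of the 9 genes and lower for DNAJA3 and DNAJB5, with a median log2 ratio of 0.13. Of the 332 table genes 158 were higher in replicate 2 and 174 lower, with a median of -0.01. Each count had 0.5 reads added, so genes with 0 reads in both libraries, such as DNAJB3, took a log2 ratio of 0.62. The 158 therefore include genes without reads. Leaving aside DNAJA4, with its 1 and 3 reads, the log2 ratios of the members ran from -0.22 to 0.21. The test compares 2 libraries of 1 group, and nothing in the labels says that they came from separate cultures, so this spread may be technical. A p that misses the threshold does not show that the levels were equal.

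**Figure D4:**
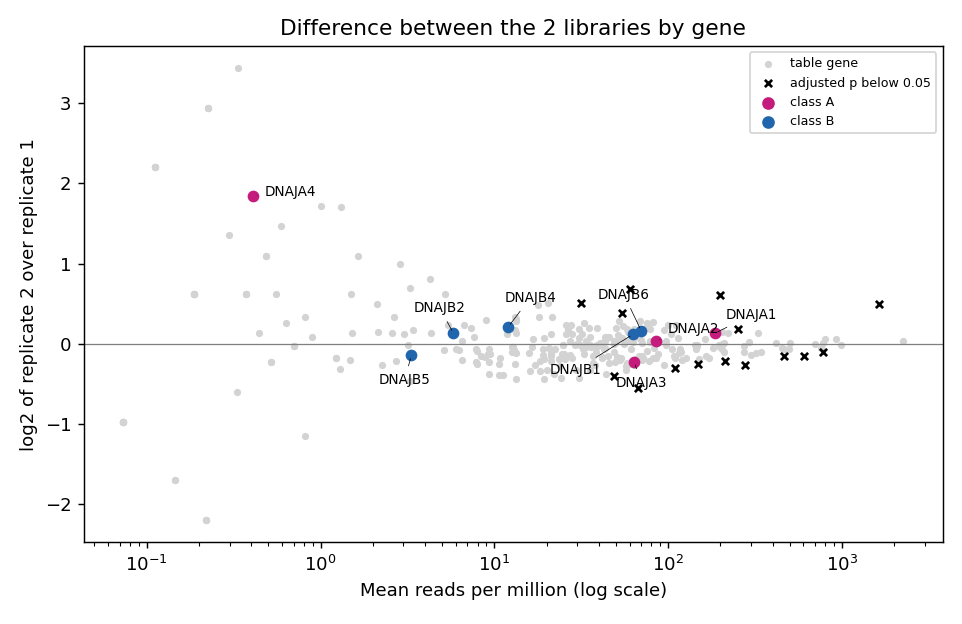
Log2 of replicate 2 over replicate 1 against mean RPM (log axis) for every table gene with reads; crosses mark the 15 genes with an adjusted p below 0.05. The J-domain proteins lie near 0, between -0.22 and 0.21, except DNAJA4 at 1.84 from 1 and 3 reads.

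Summed over the cytosolic members, class A exceeded class B with each length, but by an amount that the length set. The 3 class A genes summed to 17.3 ± 0.906 RPKM by span and the 5 class B genes to 3.67 ± 0.199 RPKM, a ratio of 4.73 ± 0.00980 (SD, n = 2). An SD from 2 libraries is itself uncertain, so this small one does not show that the ratio is precise. The ratio was 3.20 ± 0.0315 by exon union and 1.34 ± 0.0234 by principal transcript. DNAJA1 alone made up 60.2 ± 0.635% of the sum of cytosolic members by span, 60.9 ± 0.360% by exon union and 42.3 ± 0.133% by principal transcript. Without DNAJA1 the class A sum was 1.28 ± 0.0402 times class B by span, but 0.640 ± 0.0275 times by exon union and 0.351 ± 0.0166 times by principal transcript, where class B was the higher.

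The partners of these proteins were far more abundant as RNA. The 8 cytosolic members summed to 21.0 ± 1.11 RPKM by span and the 6 cytosolic HSP70 genes to 706 ± 8.59 RPKM, a share of 2.98 ± 0.193% (SD, n = 2). By exon union the sums were 111 ± 6.37 and 778 ± 7.18 RPKM, a share of 14.3 ± 0.951%. Of the 6 HSP70 genes, 2 reached 1 RPKM by span and by exon union. HSPA8, the constitutive HSP70, led that list at 394 ± 6.95 RPKM by span and 466 ± 8.23 RPKM by exon union. Against HSPA8 alone the share was 5.33 ± 0.187% by span and 23.9 ± 0.945% by exon union. HSPA1B, the stress-inducible gene at 311 ± 15.9 RPKM by span, had 5540 reads in replicate 1 and 3356 in replicate 2 (adjusted p = 0.0261, exact binomial test). Its near-identical copy HSPA1A had 1 and 3 reads, so how reads were split between the pair is uncertain. If a line with tagged HSPA1A was used, reads of the transgene could also lie in this pair, which was not tested. Without both genes the cytosolic members were 5.32% of the HSP70 sum by span.

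The nucleotide exchange factors, which release ADP from HSP70 and so end the cycle that J-domain proteins begin, summed to 29.5 ± 0.473 RPKM by span and 127 ± 3.67 RPKM by exon union. All 9 listed genes, HSPH1, HSPA4, HSPA4L, BAG1 to BAG5 and HSPBP1, reached 1 RPKM by exon union, and 8 of 9 did so by span. The cytosolic J-domain members summed to 0.712 ± 0.0489 times this list by span, 0.879 ± 0.0757 times by exon union and 1.07 ± 0.102 times by principal transcript. BAG5 led the list by span at 11.0 ± 0.416 RPKM, and HSPA4, an HSP110-type factor, by exon union at 53.5 ± 0.722 RPKM. STUB1, STIP1 and ST13, co-chaperones that bind HSP70, ranged from 47.3 to 50.5 RPKM by exon union with STUB1 highest. Each was below DNAJA1 at 67.8 RPKM and above every other member on that scale. By span STUB1 was at 44.2 RPKM, above DNAJA1 at 12.7 RPKM, and by principal transcript STIP1 (100 RPKM) and STUB1 (79.4 RPKM) stood above DNAJA1 (77.8 RPKM).

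**Figure D5:**
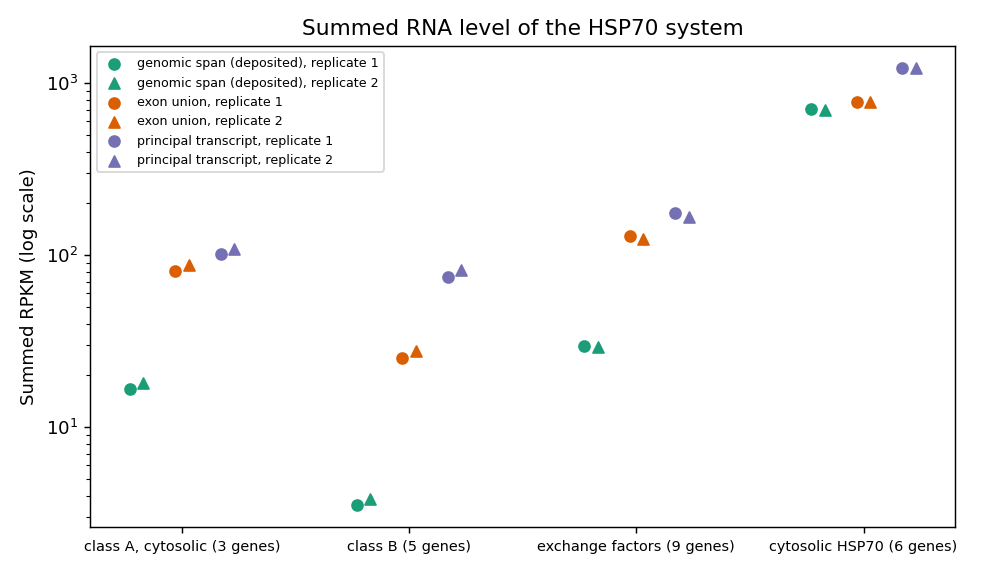
Summed RPKM (log axis) of the cytosolic class A and class B members, the exchange factors and the cytosolic HSP70 genes in replicate 1 (circles) and replicate 2 (triangles), with 3 gene lengths. The HSP70 sum, 706 RPKM by span, is above the others with each length, and class B moves most, from 3.67 to 78.4 RPKM.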

How the data were processed

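Per the labels' protocols, RNA was extracted with Trizol and sequenced from a strand-keeping library kit. Tools named in the submitters' processing notes, without their roles, were STAR 2.6.0b, Bowtie2 2.4.2 and Trim Galore 0.6.4, and the build was GRCh38. Which program counted reads, with which annotation and whether by strand, was not stated there. The authors deposited whole-number read counts for 2 replicates and a mean RPKM, per the file headers. NHS, the prefix of the count columns, is nowhere spelled out.

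The deposited mean RPKM was matched with a relative misfit below 1e-12 by counts divided by genomic span (end minus start) and by library totals, which were solved by least squares. RPKM per replicate was computed from these, and again with the exon union or the APPRIS principal transcript of GENCODE 29 as length. All 332 identifiers were found there. If reads in introns were counted, values per exon are too high for genes with long introns. With 1 group there was no contrast for a count model. Calculations used Python 3.11.15, numpy 2.4.6, scipy 1.17.1 and pandas 2.3.3. The tests were tried on simulated data, with counting error alone for the binomial test and an equal spread for all genes for the pair rule. How the pair rule behaves at low counts was not tested.

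The members and 6 other gene lists were chosen with earlier results of these data known. Genes named were the members, the highest gene of each list by span and exon, and the 3 genes nearest in level to the leading member of each class. Other genes were named after their values were seen. Cell type markers were not checked, since the table holds chaperome genes. Alternatives were other lengths, pseudocounts, thresholds, totals and filters, and each replicate left out.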

Additional observations from a re-analysis of the deposited data

How the results depend on the processing

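Of 123 recalculated values, 5 reversed, 4 lost their call, 2 gained one and 29 moved; the other 83 kept direction and call, stayed within the replicate SD or, for counts, within 1.5 times. Among those counts, members at 1 RPKM were 6 with exonic length or a threshold of 0.5 RPKM, and neighbouring pairs called were 4 with the SD pooled over all genes. Levels and ratios with 1 of the 2 replicates left out are among the 83 by construction, since they cannot leave the replicate SD. The principal transcript as length was added after the data were seen. With exonic length the median member stood at 4.68 RPKM, class A was 3.20 times class B, and the cytosolic members were 14.3% of HSP70. With the principal transcript these were 23.0 RPKM, 1.34 times and 14.9%, and 8 members instead of 4 reached 1 RPKM. DNAJA3 minus DNAJB1 reversed to -0.93 (exonic length) and -0.27 (principal transcript), DNAJB5 minus DNAJB4 to -2.45 and -1.61, and DNAJB1 minus DNAJB6 to -0.65 (principal transcript). These reversals follow from the lengths alone, as the reads are the same. DNAJB5 minus DNAJB4 was not called by span (0.25, SE 0.16), so no called difference was reversed for that pair. A threshold of 5 RPKM left 1 member. Without DNAJA1, class A was 1.28 times class B. The share of HSP70 was 5.32% without HSPA1A and HSPA1B and 5.33% with HSPA8 alone. With other library totals or a filter on low counts, 0 members differed between the libraries, and the lowest adjusted p of a member was 0.123 to 0.265 (exact binomial test). With either replicate left out, class A over class B ranged from 4.72 to 4.73 and the share of HSP70 from 2.84 to 3.11%. Depth limits DNAJA4 most, with 4 reads in all. No paired analysis was possible because all libraries belong to 1 group.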

Other observations

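The remaining class B genes of the table fell into those of the endoplasmic reticulum and those known mainly from single tissues. Of the first, DNAJB9, DNAJB11, DNAJB12 and DNAJB14, all 4 reached 1 RPKM by exon union and 3 did so by genomic span. DNAJB9, a co-chaperone of the lumenal HSP70, was highest by span at 2.68 ± 0.171 RPKM (SD, n = 2), and DNAJB12, a membrane protein, by exon union at 6.51 ± 0.763 RPKM. By exon union these 4 genes, from 2.13 to 6.51 RPKM, lay below DNAJA1, DNAJA2, DNAJA3 and DNAJB1. By span DNAJB9 was above DNAJA3 (2.05 RPKM), and DNAJB9, DNAJB11 (1.74 RPKM) and DNAJB12 (1.65 RPKM) were above DNAJB1 (1.38 RPKM).

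Of the second, DNAJB3 and DNAJB8 had 0 reads in both libraries, and DNAJB7 and DNAJB13 had 1 read in each. None of these 4 reached 1 RPKM with any of the 3 lengths.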
